A study of Caenorhabditis elegans with 3 samples.

Results

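The ligand-gated channel genes described here are the nicotinic acetylcholine receptor subunit genes of Caenorhabditis elegans and its other channels of the numbered lgc family, with a few channels that keep older names. They were taken by symbol. A gene was included if its symbol was acr- or lgc- with a number, or was unc-29, unc-38, unc-63, lev-1, lev-8, deg-3, des-2, eat-2, unc-49, exp-1 or mod-1, and if the array's annotation tied a spot to that gene alone. This gave 71 spots for 69 genes out of 15119 genes tested, 25 of them nicotinic receptor genes and 44 other channels. The rule names 88 genes in the RefSeq gene table, and the 19 without such a spot, among them unc-63, mod-1, lgc-35 and lgc-46, were not analysed here. All 69 genes had a value on all 3 arrays, and no filter on low values was applied.

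These channels belong to the Cys-loop family, in which subunits surround a central pore that opens when a transmitter binds outside the cell. In the worm, acetylcholine opens cation channels that contract body and pharyngeal muscle and excite neurons. GABA, serotonin, dopamine and tyramine open other members of the family, many of which pass anions and inhibit the cell. Nematode nicotinic receptors are the targets of the anthelmintic levamisole and of related drugs.

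The staged RNA came from late L4 and young adult hermaphrodites, labelled TP06, in 3 numbered preps. Each prep was hybridised on 1 two-channel array against RNA of a mixed wild-type reference. The labels give no genotype for TP06, no age in hours, and no composition of the reference. The staged worms were whole animals as far as the labels tell, so fewer cells of a type and less RNA per cell cannot be told apart. Each value is a log2 ratio of the staged channel over the reference channel. That direction is likely, not stated, and every higher or lower would turn with the opposite one. Nothing says that the preps were separate cultures, so p-values measure the spread between these samples, which may be technical.

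As a set, the channel genes were slightly lower in staged worms than in the reference, and few single genes passed the test. The median of their mean log2 ratios was -0.32, a 1.25-fold lower level, against -0.04 over all genes tested. Array by array, the channel genes stood at a median of -0.50 (prep 1), -0.23 (prep 2) and -0.31 (prep 3), while the medians of all genes were 0.04, -0.09 and -0.06. The channel genes thus lay below all genes on each of the 3 arrays, by most in prep 1. Of the 69 genes, 53 (76.8%) had a mean below 0, against 52.9% of all genes. On all 3 arrays 31 (44.9%) were below 0, against 28.1% of all genes, and 3 (4.35%) were above 0 on all 3, against 24.9%.

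**Figure D1:**
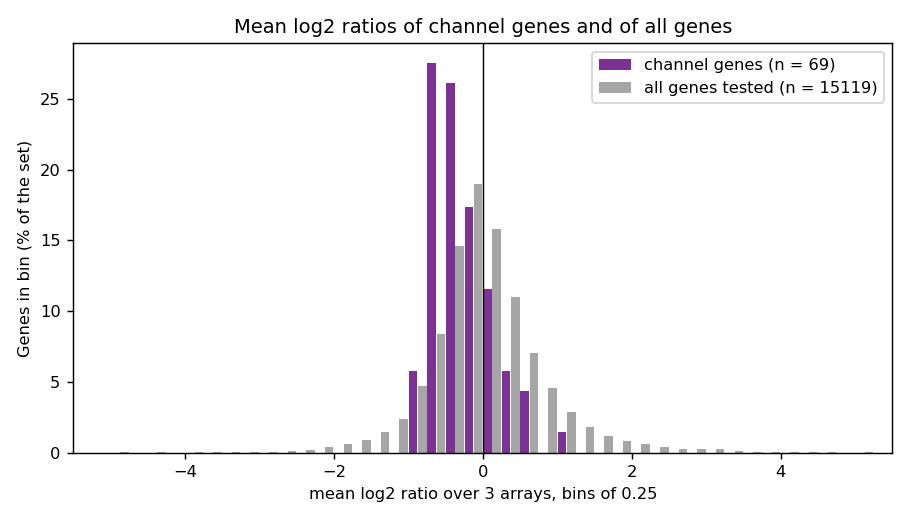
Mean log2 ratio over the 3 arrays, in bins of 0.25 on the x axis, against the share of genes in each bin on the y axis, for the 69 channel genes (purple) and all 15119 genes tested (grey). The channel genes lie between -0.97 and 1.14 with a median of -0.32, inside the wider range of all genes from -4.87 to 5.24.

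The means were set against 0 with limma, in a fit over all genes with Benjamini-Hochberg adjustment, and a gene was called at an adjusted p under 0.05. This called 2 channel genes lower and 1 higher, and left 66 uncalled. Over all genes 20.7% were called, 9.37% lower and 11.3% higher, so the share of 4.35% of the channel genes was below the background. At an unadjusted p under 0.05, 18 channel genes (26.1%) were lower and 2 higher, against 16.4% of all genes lower and 17.3% higher. At an adjusted p under 0.1, 12 (17.4%) were lower, against 13.4%. The differences were small, and their spread was like that of other genes. The median SD of a channel gene over the arrays was 0.40, against 0.39 for all genes, and 1 of 69 reached a 2-fold difference, against 14.9% of all genes. The smallest difference called anywhere on the array was 0.73 on the log2 scale.

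The gene acr-19, a nicotinic subunit gene of the group around acr-16, was the lowest of the 69. Its log2 ratios were -1.03, -1.04 and -0.84 in preps 1, 2 and 3. All 3 arrays thus lay close together and clearly below 0. The mean was -0.97 ± 0.11 (SD, n = 3), 1.96-fold lower in staged worms (limma adjusted p = 0.0150). The gene lgc-54, a channel of the lgc family, stood at -0.85, -0.72 and -0.94, with little spread as deposited. Its mean of -0.83 ± 0.11 was 1.78-fold lower (limma adjusted p = 0.0298). After centring within blocks of neighbouring spots, described below, lgc-54 stood at -0.29, -0.51 and -0.99, a mean of -0.60 ± 0.36. Its small spread thus held only for the deposited values. The only channel gene called higher was lgc-12, at 0.61, 1.06 and 1.75. Its values were above 0 on each array but spread over more than 1 log2 unit, with prep 3 highest. Its mean was 1.14 ± 0.57, 2.20-fold higher (limma adjusted p = 0.0135).

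With 2 arrays in place of 3, most of these calls were lost. The mean of acr-19 hardly moved without prep 1 (-0.94, adjusted p = 0.0615) or prep 2 (-0.94, adjusted p = 0.0637), though it no longer passed. Likewise lgc-54 did not pass without prep 1, 2 or 3, while its mean stayed at -0.83, -0.89 and -0.78 (adjusted p = 0.0775 to 0.116). The call of lgc-12 was lost without prep 3, its highest array (0.83, adjusted p = 0.0911). A further 8 genes stopped just short of the threshold, with adjusted p from 0.0502 to 0.0676. They were picked out after their values were seen. In order of p they were lgc-38, unc-38, acr-15, lgc-40, acr-5, lgc-1, lev-1 and lgc-45, and of these lgc-45 was above 0 and the others below. After centring within blocks of neighbouring spots, described below, lgc-38 passed. The genes unc-38 and acr-5 stayed near the threshold (limma adjusted p = 0.0507 and 0.0564). The genes lev-1, acr-15, lgc-45, lgc-40 and lgc-1 moved away from it, with limma adjusted p from 0.112 to 0.194. The gene lgc-40, whose channel is known to open with serotonin, choline and acetylcholine, had log2 ratios of -0.91, -0.58 and -0.69.

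The levamisole receptor of body wall muscle, which drives contraction at the neuromuscular junction, is built from the products of unc-29, unc-38, unc-63, lev-1 and lev-8. Of the 4 subunit genes measured, all had a mean below 0 and 0 were called. The alpha subunit gene unc-38 stood at -0.85, -0.64 and -0.68. As deposited, these values hardly differed between arrays, with a mean of -0.72 ± 0.11 (limma adjusted p = 0.0540). After centring within blocks of neighbouring spots, described below, unc-38 stood at -1.42, -0.60 and -0.48. Its mean was then -0.83 ± 0.51, so the small spread depended on this step. The non-alpha subunit gene lev-1 stood at -1.14, -0.39 and -0.68, a mean of -0.74 ± 0.38 (limma adjusted p = 0.0632). Both were below 0 on every array, so 2 of the 4 kept 1 direction throughout. The other 2 did not. The alpha subunit gene lev-8 stood at -0.85, -0.39 and 0.08, a mean of -0.39 ± 0.46. The non-alpha gene unc-29 stood at -1.05, 0.69 and -0.79, a mean of -0.38 ± 0.94, with prep 2 on the opposite side of 0.

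The nicotine-sensitive receptor of the same muscle, which does not respond to levamisole, is formed by ACR-16. Its gene acr-16 stood at 0.18, 0.22 and -0.25, a mean of 0.05 ± 0.26. The 95% interval of this mean ran from -0.49 to 0.59 on the log2 scale. A shift as large as that of unc-38 or lev-1 would lie outside it. Shifts as large as those of lev-8 (-0.39) and unc-29 (-0.38) would lie inside it. The difference between acr-16 and the levamisole receptor genes was not itself tested. Body wall muscle markers were mixed. Of 10 measured, 4 were called higher (myo-3, unc-15, unc-27 and mup-2) and 0 lower. A further 4 had a mean below 0 and were not called (unc-54, unc-22, unc-89 and hlh-1, from -0.04 to -0.29). The median of the 10 was 0.41, 0.27 and 0.49 in preps 1, 2 and 3. Of the remaining nicotinic genes outside the larger groups, acr-8, whose product joins levamisole receptors in the parasitic nematode Haemonchus contortus, stood at -0.11 ± 0.45, and acr-6 at -0.49 ± 0.10 with all 3 arrays below 0.

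**Figure D2:**
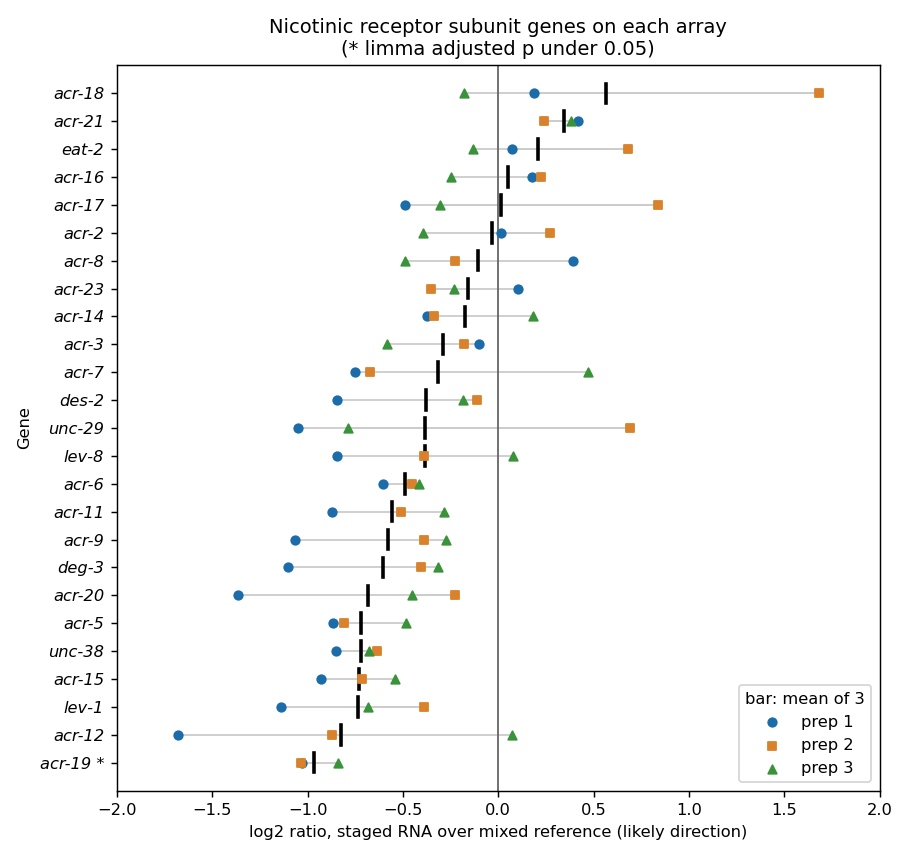
Log2 ratio of staged RNA over the mixed reference (x axis) for the 25 nicotinic receptor subunit genes (y axis, ordered by mean), with a point for each of the 3 preps and a black bar at the mean. Of the 25 means 20 lie below 0, prep 1 is the lowest point for 16 genes, and acr-19 at -0.97 is the gene marked as called.

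The ACR-2 receptor of cholinergic motor neurons sets the balance of excitation and inhibition in the motor circuit, and ACR-2, ACR-3 and ACR-12 are among its subunits. None of the 3 genes passed. The gene acr-12, also active in GABA motor neurons, was the third lowest channel gene, yet its arrays disagreed, with -1.68 in prep 1, -0.87 in prep 2 and 0.07 in prep 3. Its mean was -0.83 ± 0.88 (limma adjusted p = 0.0921), and it was called at -1.28 without prep 3 (adjusted p = 0.00458) but stood at -0.40 without prep 1 (adjusted p = 0.443). The non-alpha gene acr-2 was near 0 at 0.02, 0.27 and -0.39, a mean of -0.03 ± 0.34. Its neighbour acr-3 was at -0.10, -0.18 and -0.58, a mean of -0.29 ± 0.26. With each array centred on its median acr-2 moved to 0.00 from below, so it had no settled sign.

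The DEG-3 group of nicotinic subunits is found in nematodes and includes targets of newer anthelmintics. Of its 7 genes measured, 5 had a mean below 0, 4 were below 0 on all arrays and 0 were called, with a median of -0.38. The products of deg-3 and des-2 form a channel opened by choline, and a dominant deg-3 mutation kills touch neurons. The gene deg-3 stood at -1.10, -0.40 and -0.31, a mean of -0.61 ± 0.43 (limma adjusted p = 0.126). Its neighbour des-2, averaged from 2 spots, stood at -0.84, -0.11 and -0.19, a mean of -0.38 ± 0.40. Both genes were thus lowest in prep 1, and the 2 spots of des-2 had means of -0.47 and -0.29. The gene acr-23 encodes a receptor for betaine that the drug monepantel acts on. It stood at 0.10, -0.35 and -0.23, a mean of -0.16 ± 0.24. The motor neuron gene acr-5 was at -0.72 ± 0.21, and its 2 spots lay apart in the order of the spots, with means of -0.72 each. The spots still differed on every array. They stood at -0.49, -0.97 and -0.71 against -1.24, -0.66 and -0.26 in preps 1, 2 and 3. At the other end was acr-18, the third highest channel gene, with 0.19, 1.68 and -0.18. Its mean of 0.56 ± 0.99 rested on prep 2.

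The group around acr-16 had 9 genes measured. The call of acr-19 was its only one, and the other 8 missed the threshold. The median of the group was -0.32, 6 of the 9 had a mean below 0 and 4 were below 0 on all 3 arrays. Apart from acr-19 these were acr-15, acr-9 and acr-11, at -0.73 ± 0.19, -0.58 ± 0.43 and -0.56 ± 0.30. The gene acr-21 was the only nicotinic gene above 0 on all arrays, at 0.42, 0.24 and 0.38, and at 0.35 ± 0.09 it did not pass (limma adjusted p = 0.347). The gene eat-2 encodes a subunit of the pharyngeal receptor that sets the rate of feeding. It stood at 0.07, 0.68 and -0.13, a mean of 0.21 ± 0.42, with a 95% interval from -0.36 to 0.78. Among 7 pharyngeal muscle markers the median was -0.06. Of these tnc-2 and ceh-22 were called lower, at -1.18 ± 0.75 and -0.79 ± 0.36, and 0 were called higher, with tnt-4 at 0.74 ± 0.66 and tni-4 at 0.40 ± 0.27.

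GABA relaxes body muscle through the anion channel of unc-49 and contracts the enteric muscles through the cation channel of exp-1. The 4 GABA receptor genes and their relatives that were measured all had a mean below 0, and 0 were called. The gene unc-49 stood at -1.66, -0.08 and -0.31, so that its mean of -0.69 ± 0.85 rested on prep 1 (limma adjusted p = 0.153). The gene exp-1 stood at -1.01, -1.16 and 0.46, a mean of -0.57 ± 0.90, with prep 3 on the other side of 0. Without prep 3 it was called at -1.08 (adjusted p = 0.0192). Without prep 1 it stood at -0.35 and without prep 2 at -0.27 (adjusted p = 0.599 and 0.709). Of the 2 unc-49 relatives, lgc-38 was below 0 throughout at -0.93, -1.11 and -0.33. Its mean was -0.79 ± 0.41 (limma adjusted p = 0.0502), and it passed under 5 of the 12 alternatives, with adjusted p of 0.0291 to 0.0492. The gene lgc-37 showed no such shift, with -0.56, 0.36 and -0.06 and a mean of -0.09 ± 0.46.

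Amines open a further branch of these channels. Of 4 genes listed here for this branch, 3 were measured (lgc-50, lgc-53 and lgc-55). Each was below 0 on every array as deposited, and 0 were called. The list is not complete, since lgc-40, described above, also opens with serotonin and was left out of it. The remaining lgc genes, lgc-54 among them, were not sorted by transmitter, so these counts hold only for the 3 listed genes measured. The gene lgc-55 encodes the tyramine-gated anion channel that relaxes the head during escape. It stood at -0.62, -0.18 and -0.89, a mean of -0.57 ± 0.36 (limma adjusted p = 0.142). The dopamine-gated channel gene lgc-53 stood at -0.50, -0.04 and -0.79, a mean of -0.44 ± 0.38. The serotonin-gated channel gene lgc-50 stood at -0.47, -0.55 and -0.26, a mean of -0.43 ± 0.15. In lgc-55 and lgc-53 prep 3 was lowest and prep 2 closest to 0. After centring within blocks of neighbouring spots, described below, prep 2 was above 0 in both, lgc-55 stood at -0.20 and lgc-53 at -0.42 with prep 1 lowest, while lgc-50 stayed below 0 on every array at -0.44. The genes lgc-47, lgc-48 and lgc-49, related to acetylcholine-gated anion channels, stood at -0.49 ± 0.14, 0.19 ± 0.22 and -0.41 ± 0.57, and none passed.

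The remaining 34 genes of the lgc family, lgc-40 among them, were put in none of these groups. The calls among them were lgc-54 (lower) and lgc-12 (higher). Their median was -0.25, and 13 were below 0 on all 3 arrays. The second highest channel gene was lgc-45, at 0.83, 0.27 and 1.12. It was above 0 on each array, with a mean of 0.74 ± 0.43 (limma adjusted p = 0.0676). The genes lgc-39, lgc-15 and lgc-57 had the widest spreads of this group, with prep 2 highest in each. The gene lgc-39 stood at -0.32, 1.84 and -0.11 and lgc-15 at -0.12, 1.80 and -0.35, so that prep 2 stood apart from both other arrays. The gene lgc-57 stood at -0.47, 1.42 and 0.68, with no 2 arrays close together. In all, 4 channel genes exceeded 1 in prep 2 alone, and 10 fell below -1 in prep 1 alone.

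**Figure D3:**
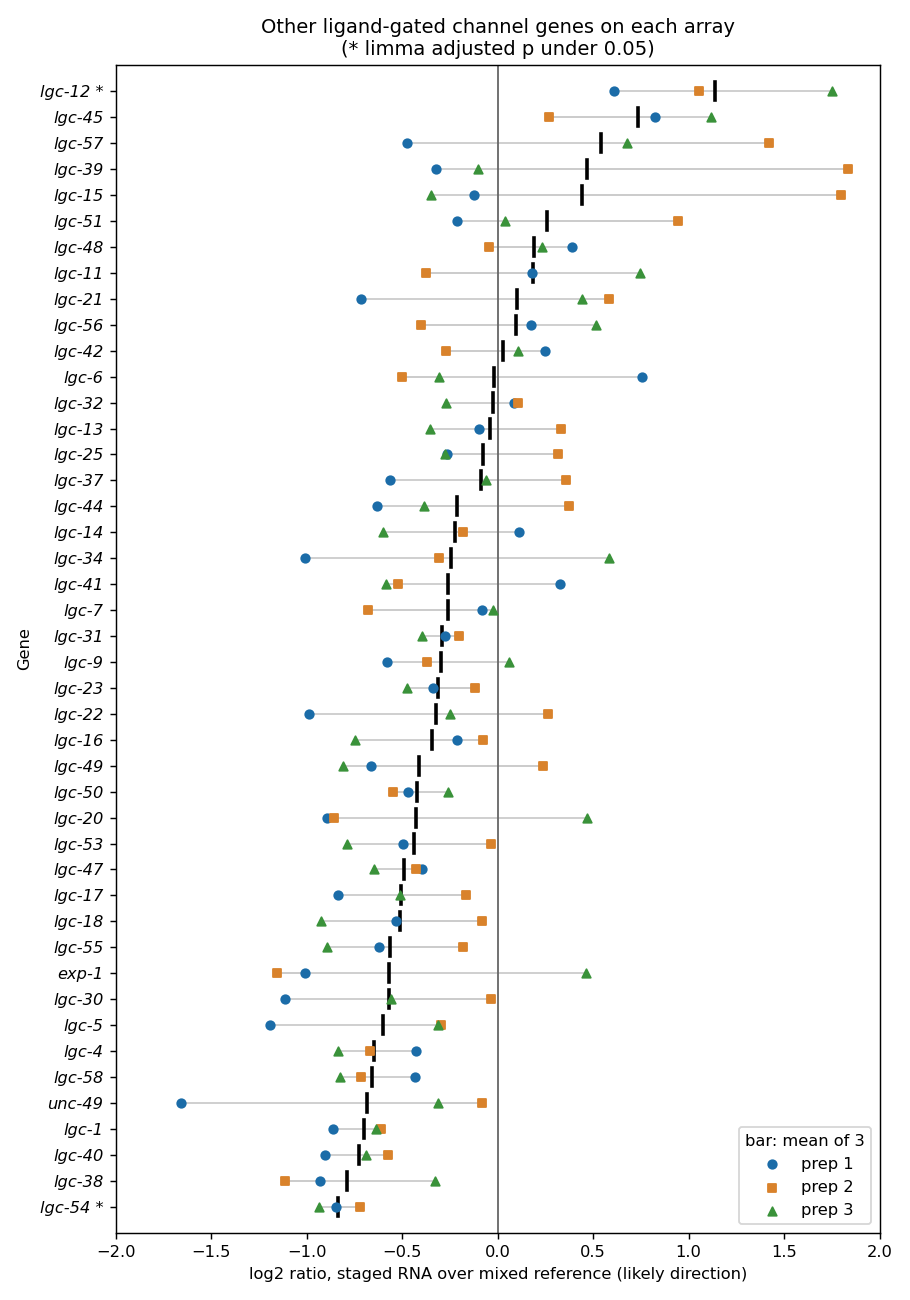
Log2 ratio of staged RNA over the mixed reference (x axis) for the 44 channel genes that are not nicotinic subunits (y axis, ordered by mean), with a point for each of the 3 preps and a black bar at the mean. Of the 44 means 33 lie below 0, lgc-12 at 1.14 and lgc-54 at -0.83 are marked as called, and prep 2 is the highest point for 25 genes.

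The arrays ranked the channel genes less alike than they ranked all genes. Across the 69 genes Pearson's r between pairs of arrays was 0.22 to 0.33 and Spearman's rho 0.19 to 0.37. Over all 15119 genes r was 0.65 to 0.68 and rho 0.57 to 0.58. The genes share the arrays and the reference RNA and are not independent replicates, and the channel genes span a narrower range of ratios. For 33 of the 69 genes prep 1 was the lowest array, against 4989 of all 15119. Among nicotinic genes this held for 16 of 25 and among the other channels for 17 of 44.

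Several channel genes lie next to each other in the genome, by the gene order of the RefSeq annotation. The neighbours deg-3 and des-2 on chromosome V differed by -0.23 and acr-2 and acr-3 on X by 0.25, in each pair less than the SD of either gene over the arrays. The neighbours acr-15 and acr-16 on V stood further apart, by -0.78, with ranges over the arrays that did not overlap. On X, lgc-13 to lgc-18 form a run, with means of -0.04, -0.22, 0.44, -0.35, -0.50 and -0.51 in the order of their numbers. Of the 69 genes 23 (33.3%) are X-linked, against 14.9% of all genes. The X-linked channel genes had a median of -0.31 and all X-linked genes -0.26, while the 46 autosomal channel genes had a median of -0.32 and all autosomal genes 0.01. The median of autosomal channel genes was -0.63, -0.28 and -0.25 in preps 1, 2 and 3, against 0.09, -0.07 and 0.00 for all autosomal genes. The lower median of the channel genes was thus there among autosomal genes taken alone.

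The deposited ratios differed between parts of the array, whose 20000 spots can be split into 32 consecutive runs of equal size (print blocks). This layout was taken from the order of the deposited spots and is an assumption. Position and chromosome went together. Blocks 1 to 16 held all 24 channel genes of chromosomes I, II and III and 99.7% of all genes there, and blocks 17 to 32 held all 38 of V and X. Between these 2 ranges of blocks, position and chromosome cannot be told apart, and centring removes differences of either. The median of a print block ran from -0.56 to 0.57 in prep 1, from -0.38 to 0.31 in prep 2 and from -0.49 to 0.49 in prep 3, as large as many of the differences above. The genes exp-1, acr-7 and lgc-20 lay in the same block as lgc-12 and had nearly the same readings in prep 3, 0.46, 0.47 and 0.47, after negative ones in preps 1 and 2. The median of that block was 0.05, -0.30 and 0.26 in preps 1, 2 and 3. Centring each array within the blocks left the median of the channel genes at -0.30, against 0.00 for all genes. The number of channel genes below 0 on all 3 arrays was then 25 of 69 in place of 31. Over all genes the share was 26.8%. Centring moved single means by up to 0.37, and 5 of them changed sign. The gene acr-19 was then at -1.01, -1.01 and -1.09 with a mean of -1.03 ± 0.05 (limma adjusted p = 0.00950), and lgc-12 kept its call at 1.14 (adjusted p = 0.0163). The call of lgc-54, which lies in the block with the lowest median in prep 1, was lost at -0.60 (adjusted p = 0.0988), and lgc-38 was called at -0.75 (adjusted p = 0.0416).

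**Figure D4:**
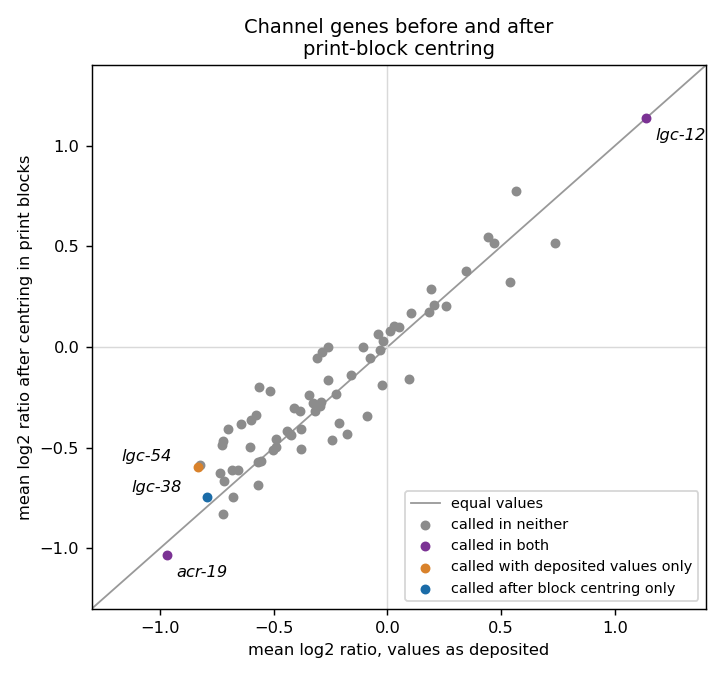
Mean log2 ratio of each of the 69 channel genes with the values as deposited (x axis) and after centring every array within print blocks (y axis), with a line of equal values and colours for limma calls. The genes acr-19 and lgc-12 are called with both, lgc-54 with the deposited values and lgc-38 after centring, and no mean moves by more than 0.37.

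The machinery around these receptors gave mixed readings. Among 12 genes of receptor assembly and clustering, limma called 1 lower and 1 higher, and 0 to 3 were called lower across the alternatives. The lower gene was madd-4, whose product is secreted by motor neurons to cluster receptors in the muscle, at -0.93 ± 0.33 (limma adjusted p = 0.0229). The FERM domain gene frm-3 was next at -0.90 ± 0.71 and did not pass. The higher gene was nra-4, a regulator of receptor subunits in the endoplasmic reticulum, at 0.88 ± 0.43 (limma adjusted p = 0.0338), followed by its partner nra-2 at 0.75 ± 0.25, which did not pass. Neither call held without prep 1, where madd-4 was at -0.80 (adjusted p = 0.111) and nra-4 at 0.91 (adjusted p = 0.102). Both calls were also lost at an adjusted p of 0.01. The call of madd-4 was lost without prep 3 (-0.87, adjusted p = 0.0734), and that of nra-4 without prep 2 (0.65, adjusted p = 0.226).

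Genes that supply and clear acetylcholine and GABA were lower in part. Among 11 measured, limma called 3 lower and 0 higher, and their median was -0.58. The GABA synthesis gene unc-25 stood at -1.98, -1.33 and -0.96, a mean of -1.42 ± 0.51 (limma adjusted p = 0.00338). Every array was thus below 0, prep 1 by most. The GABA uptake gene snf-11 stood at -1.10 ± 0.86 (limma adjusted p = 0.0301). The vesicular acetylcholine transporter gene unc-17 stood at -0.77 ± 0.14 (limma adjusted p = 0.0434). At the other end gta-1, a GABA transaminase gene, was at 0.68 ± 0.49 and the acetylcholinesterase gene ace-2 at 0.16 ± 0.21, and both did not pass. With arrays centred on their medians, at an adjusted p under 0.01, or without prep 1, 1 of the 3 calls was left. After centring within blocks of neighbouring spots, described above, snf-11 was lost (-0.99, limma adjusted p = 0.0707). Without prep 1 snf-11 stood at -0.62 and unc-17 at -0.83, and unc-17 was also lost without prep 2 (-0.69) or prep 3 (-0.78).

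Among 12 Cys-loop channel genes that the symbols above leave out, limma called 3 lower and 0 higher, and their median was -0.55. The lower ones were acc-1, an acetylcholine-gated anion channel gene, at -1.03 ± 0.50, and the glutamate-gated anion channel genes avr-14 and glc-4, at -0.93 ± 0.58 and -0.87 ± 0.37. The ivermectin target gene glc-1 was at -0.96 ± 1.01 and did not pass. The highest were glc-2 at 0.36 ± 0.22 and cup-4 at 0.00 ± 0.70, and neither passed. After centring within blocks of neighbouring spots, described above, 5 were called lower, but acc-1 was not among them (-0.67, adjusted p = 0.104). Without prep 1 all 3 calls were lost, with acc-1 at -0.77, avr-14 at -0.68 and glc-4 at -0.73. Without prep 2, avr-14 (-0.87) and glc-4 (-0.80) were lost as well.

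Markers of neurons were lower and markers of the germ line higher in the same arrays. Of 13 neuronal markers measured on all arrays, 13 had a mean below 0 and 6 were called lower, with medians of -1.34, -0.43 and -0.95 in preps 1, 2 and 3. The synaptic genes ric-4 and snt-1 stood at -1.79 ± 0.41 and -1.63 ± 0.48. The other 7 of the 13 did not pass. Of these unc-104 and unc-64 were near 0, at -0.04 ± 0.43 and -0.13 ± 0.53, with unc-64 above 0 in preps 2 and 3. Of 11 germ line markers, 8 were called higher, with medians of 2.04, 1.30 and 1.27, and of 8 sperm markers 8, with medians of 2.74, 1.97 and 2.87. Prep 1 thus had the lowest medians of nicotinic genes (-0.84, against -0.35 and -0.31 in preps 2 and 3) and of neuronal markers, and the highest of germ line markers. The part of these tissues in the readings of the channel genes was not tested.

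**Figure D5:**
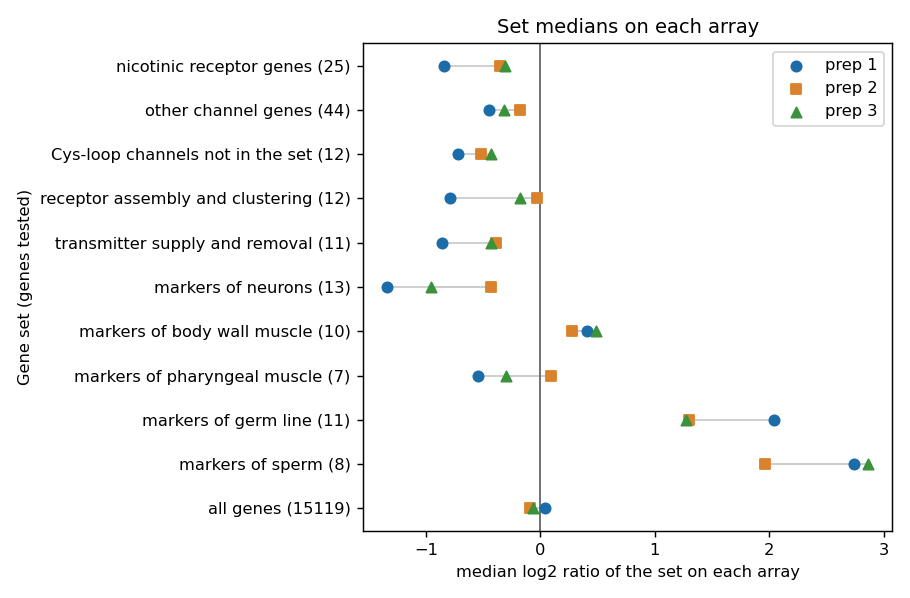
Median log2 ratio of each gene set (x axis) on each of the 3 arrays (points), for the channel genes, related genes, tissue markers and all genes (y axis, with the number of genes tested). Nicotinic genes lie at -0.84, -0.35 and -0.31 in preps 1, 2 and 3, between neuronal markers and all genes, while germ line and sperm markers lie above 1 on every array.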

How the data were processed

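The deposited table holds 1 log2 ratio per spot and array, as made by the authors. Their dyes, background correction, spot filter and normalization are not stated in the labels. The base of the log was checked: 2 raised to the deposited value fell on steps of 0.001 for 100% of ratios under 0.6 on each array, against at most 3.10% with a natural log or a log10. Intensities were not analysed here, so no spot was left out as dim or saturated, and 3 arrays set the precision. Values were missing for 73, 175 and 127 of 20000 spots. Gene names came from the platform's annotation and were checked against RefSeq genes of assembly WBcel235, which also gave chromosomes and gene order. Of the spots, 15655 had 1 gene. Symbols of the channel genes did not change. Spots of 1 gene were averaged per array, which concerned acr-5 and des-2 here.

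The 15119 genes with 3 values entered limma 3.58.1 under R 4.3.3 (lmFit, then eBayes, a two-sided test against 0). The reference was 1 common RNA, and its own spread is left out. The intervals are limma's at 95%. The fit was tested on simulated data. Alternatives changed centring, scale, variance estimate, weights, spots, missing values, symbols and threshold, and left out each prep. Named genes were all channel genes called, the 3 highest and 3 lowest, members of receptors of known role, and in the related lists the 2 highest, the 2 lowest and any called. The members and lists were chosen with earlier results of these data known.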

Additional observations from a re-analysis of the deposited data

How the results depend on the processing

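The median of the channel genes moved by less than its spread between arrays under every alternative run. The count of channel genes called lower (2) changed more. It was 5 with quantile normalization, 9 with a mean trend and robust hyperparameters in eBayes, 0 at an adjusted p under 0.01, and 0 to 4 when 1 prep was left out. With the trend 9 of 69 is 13.0%, against 11.8% of all genes called lower in that fit. With quantile normalization the share was 7.25%, against 9.93% of all genes called lower. At an adjusted p under 0.01 it was 0%, against 4.32%. Without prep 1, 2 or 3 it was 0%, 0% and 5.80%, against 4.39%, 7.71% and 8.63% of all genes. For nicotinic genes the count of 1 became 2, 5, 0 and 0 to 2 in the same order, and for the other channels 3, 4, 0 and 0 to 2, with 2 under array weights. The count called higher (1) was 0 at an adjusted p under 0.01 and 0 to 1 with a prep left out. Over all genes 3126 were called, 1605 at an adjusted p under 0.01 and 1759 to 2904 with a prep left out, the fewest without prep 1. Signs turned in genes near 0 that never passed. With arrays centred on their medians acr-2 was at 0.0029. With 1 prep left out acr-2 ranged from -0.19 to 0.15, lgc-37 from -0.31 to 0.15, acr-16 from -0.0344 to 0.20 and eat-2 from -0.0291 to 0.38. Of the 24 named channel genes, 12 kept their sign and their side of the threshold under every alternative. No paired analysis was possible because there is 1 group. With 3 arrays the limma SE of a channel gene was 0.24 to 0.37, so a gene that did not pass may still differ.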
